A study of Mus musculus with 1931 samples.

Results

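The 4 keratins Krt7, Krt8, Krt18 and Krt19 and the intermediate filament gene Vim were followed in single cells of RtL-embryoids and of the 2D cultures that match their compartments. They are 5 of the 20999 genes in the expression table, were chosen by name, and all 5 were found there. RtL-embryoids are aggregates of 3 mouse ESC lines. Kermit cells report Oct3/4 activity by GFP, 5-Factor ESCs carry doxycycline (DOX)-inducible Cdx2, Tfap2c, Eomes, Gata3 and Ets2, and mCherry-transduced iGATA6 ESCs carry DOX-inducible Gata6. The aggregates received DOX at 2 µg/ml for 3 days, followed by 24 h without it, and hand-picked structures were pooled before the sort. Single cells were sorted onto plates 3, 4 and 5 by GFP, by mCherry or by the surface protein CD40, and SMART-seq2 libraries were made. The 2D cultures were Kermit ESCs kept in 2i/LIF without DOX, iTSC made from 5-Factor ESCs by DOX in TSC medium with FGF4 and sorted by CD40, and iXEN cells made from iGATA6 ESCs by DOX and sorted by mCherry.

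All 3D cells came from 1 pool, and each 2D culture was 1 sample. The plates are technical splits of the pool, so no test, p-value or standard error was derived, and each 3D value is given for plates 3, 4 and 5 in that order. Culture, library plate and medium cannot be told apart in the comparisons of 3D with 2D. Levels are TP10k, which are TPM rescaled to a sum of 10000 per cell, and because TPM are corrected for transcript length, levels of different genes can be set side by side. Of 1931 wells, 1406 had at least 2500 genes above 0 and were kept. The kept 3D cells had a median of 5219 genes above 0, and the 2D cells 8866.

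The labels name the wells of the embryoids only by plate, row and column. The columns were assigned by the rule as Epi (columns 1 to 8), VE (columns 9 to 16) and ExE (columns 17 to 24), which held 22.3%, 22.4% and 25.1% of the kept cells, and this assignment was checked against 3 marker lists that hold no keratin and no Vim. In the Epi columns every cell had the Epi list highest, and in the VE columns 98.1% of the cells had the VE list highest, although Pou5f1 still averaged 4.53 TP10k there. In the ExE columns the ExE list was highest in 72% of the cells, the VE list in 16.4% (58 cells) and the Epi list in 11.6% (41 cells), and in 99 cells the leading lists lay within 0.1 of each other. The ExE list summed to 5.31 TP10k in the ExE columns, 0.203 in the VE columns and 0.713 in the Epi columns. Part of that list (Cdx2, Eomes, Tfap2c and Gata3) can also be read from the transgenes. ESCs made up 10.1% of the kept cells and iTSC and iXEN cells 10.03% each. All ESCs and iXEN cells had their own list highest, as did 78% of the iTSC, while the other 31 cells had the Epi list highest.

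Keratins build the intermediate filaments of epithelia. A filament needs a type II keratin (Krt7 or Krt8) paired with a type I keratin (Krt18 or Krt19), and Krt8 with Krt18 is the first pair made in the mouse embryo, in trophectoderm and primitive endoderm. Krt7 and Krt19 join it in trophoblast and other simple epithelia. Vim is the type III intermediate filament protein of mesenchyme and of many cultured cells, and it assembles without a partner.

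On the GRCm38.p6 assembly, RefSeq places Krt8 at chr15:101996711-102004342 and Krt18 at chr15:102028216-102032026, with 23873 bases between them. The pair thus joins a type II and a type I gene side by side. Krt7 lies on the same chromosome at chr15:101412403-101427806, Krt19 at chr11:100140810-100145926 and Vim at chr2:13574311-13582826. Krt8 and Krt18 were the most closely correlated members over all kept cells, so the 250 bases before the RefSeq start of these genes are shown from 5′ to 3′ in gene orientation, at chr15:102004343-102004592 on the minus strand for Krt8, chr15:102027966-102028215 on the plus strand for Krt18 and chr2:13574061-13574310 on the plus strand for Vim. Capitals mark matches to the motifs that were searched.
Krt8: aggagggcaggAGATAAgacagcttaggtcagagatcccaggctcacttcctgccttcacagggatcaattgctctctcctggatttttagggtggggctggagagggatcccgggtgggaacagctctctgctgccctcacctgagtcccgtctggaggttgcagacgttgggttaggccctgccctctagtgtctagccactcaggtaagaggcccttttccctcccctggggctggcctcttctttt
Krt18: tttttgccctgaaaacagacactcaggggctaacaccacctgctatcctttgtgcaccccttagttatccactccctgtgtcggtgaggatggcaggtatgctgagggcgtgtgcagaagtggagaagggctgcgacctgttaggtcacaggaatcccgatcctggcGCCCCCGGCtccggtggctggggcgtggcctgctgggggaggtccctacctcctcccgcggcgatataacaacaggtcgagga
Vim: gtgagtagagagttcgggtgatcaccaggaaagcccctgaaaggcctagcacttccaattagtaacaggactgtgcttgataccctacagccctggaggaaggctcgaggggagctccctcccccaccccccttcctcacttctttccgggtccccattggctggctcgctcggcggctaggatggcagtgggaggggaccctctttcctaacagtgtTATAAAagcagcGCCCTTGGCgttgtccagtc

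Of 7 motifs searched on both strands, Krt8 held 1 GATA match (AGATAA), near the far end of its window, and Krt18 held 1 AP-2 match (GCCNNNGGC) that ended 74 bases before its start. Vim held 1 AP-2 match ending 11 bases and 1 TATA match (TATAAA) ending 26 bases before its start. The window of Krt7 at chr15:101412153-101412402 held 2 AP-2 and 4 SP/KLF matches (GGGCGG), 1 of each overlapping. The AP-1 motif (TGANTCA), the TEAD motif, spelled GGAATG, and the ETS motif, whose letters were CCGGAAG, had no match in these 4 windows, and were held by 6.75%, 12.6% and 6.91% of all windows. Of 32851 RefSeq windows of the same length, 13.7% held the AP-2 motif, 9.99% GATA, 12.4% TATA and 32.7% SP/KLF. The windows of Krt8 and Krt18 shared no matched motif. These matches describe letters only and show no binding.

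Krt8, the type II keratin of simple epithelia, was scarce in the Epi columns and abundant in both extraembryonic compartments of the embryoids. On plates 3, 4 and 5 its mean level was 0.0908, 0.0701 and 0.193 TP10k in the Epi columns, 2.12, 2.16 and 1.91 in the VE columns and 5.15, 5.88 and 4.22 in the ExE columns. The plate means of the 3 compartments did not overlap. In 2D it averaged 0.0869 TP10k in ESCs, 2.12 in iTSC and 5.99 in iXEN cells. By these means ExE lay above VE in 3D and iXEN cells above iTSC in 2D, but the median cell held more Krt8 in the VE columns (1.59) than in the ExE columns (1.41), so the order in 3D holds for the means only. Krt8 was above 0 in 16.2% of the cells of the Epi columns (exact 95% interval 12.3 to 20.8), 91.4% of the VE columns (87.8 to 94.3) and 74.2% of the ExE columns (69.3 to 78.7). Intervals cover counting error only.

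Krt18, the type I partner of Krt8, followed it with a different spacing. Its mean level was 0.231, 0.33 and 0.265 TP10k in the Epi columns, 1.04, 1.12 and 0.978 in the VE columns and 4.84, 5.47 and 3.98 in the ExE columns. The plates of the compartments again did not overlap. In 2D, ESCs averaged 0.0572 TP10k, iTSC 5.77 and iXEN cells 6.83, so that the ExE columns and both extraembryonic cultures held high levels and the VE columns did not. The share of cells above 0 was 60% in the VE columns (54.4 to 65.5) and 60.1% in the ExE columns (54.7 to 65.2), against 96.5% of the iTSC (91.9 to 98.8) and 100% of the iXEN cells (97.4 to 100).

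Krt19, a type I keratin that can also pair with Krt8, was the most ExE-weighted member. Its mean level was 2.84, 3.26 and 1.71 TP10k in the ExE columns, 0.239, 0.0996 and 0.0629 in the VE columns, and 0.00791, 0 and 0.156 in the Epi columns. In the Epi columns Krt19 was above 0 in 2 cells (0.637%), and in 0 cells on plate 4, which allows a share of up to 2.80%. Of the 2D cultures, iTSC averaged 1.42 TP10k, iXEN cells 0.414 and ESCs 0.00924. The share of cells with Krt19 was 55% in the ExE columns (49.6 to 60.2), 9.84% in the VE columns (6.79 to 13.7) and 75.2% in iTSC (67.2 to 82.1).

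Krt7, a type II keratin of trophoblast and ducts, was scarce in every group. Its mean level was 0.21, 0.156 and 0.105 TP10k in the ExE columns and 0.132 in iTSC, while all other plates and cultures lay between 0.00869 and 0.0482. In ESCs 59.9% of the cells were above 0 for Krt7, but their median was 0.0102 TP10k, and only 0.704% of the ESCs reached 10 TPM. Counting cells above 0 thus says little about this gene where more genes are detected per cell. At 10 TPM or more, Krt7 was found in 11.6% of the ExE column cells, 18.4% of the iTSC and at most 2.23% of any other group.

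Vim had another order. Its mean level was 0.369, 0.461 and 0.335 TP10k in the Epi columns, 0.233, 0.192 and 0.171 in the VE columns, and 1.27, 2.00 and 1.45 in the ExE columns. The highest mean of all groups was found in 2D ESCs with 2.19 TP10k, followed by the ExE columns with 1.57 over all plates and by iTSC with 1.49, inside the range of the ExE plates. iXEN cells averaged 0.236, close to the VE columns. Vim was above 0 in 98.6% of the ESCs (95 to 99.8) but in 28% of the cells in the Epi columns (23.1 to 33.3). Fibroblast and feeder genes, a list of 7 that includes Col1a1, Col1a2 and Thy1, summed to between 0.0108 and 0.0478 TP10k in the 6 groups, with the lowest sum in the ExE columns and the highest, mostly Thy1 (0.0398), in the Epi columns. Col1a1 was highest in ESCs, at 0.00539 TP10k, and any gene of the list was above 0 in 65.5% of the ESCs, the largest share of the 6 groups. ESCs also had the most genes above 0, with a median of 9093.5. The list summed to 0.0285 TP10k in ESCs, below the Epi columns, iTSC (0.0377) and iXEN cells (0.0326). The part of these genes in the level of Vim was not tested.

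**Figure D1:**
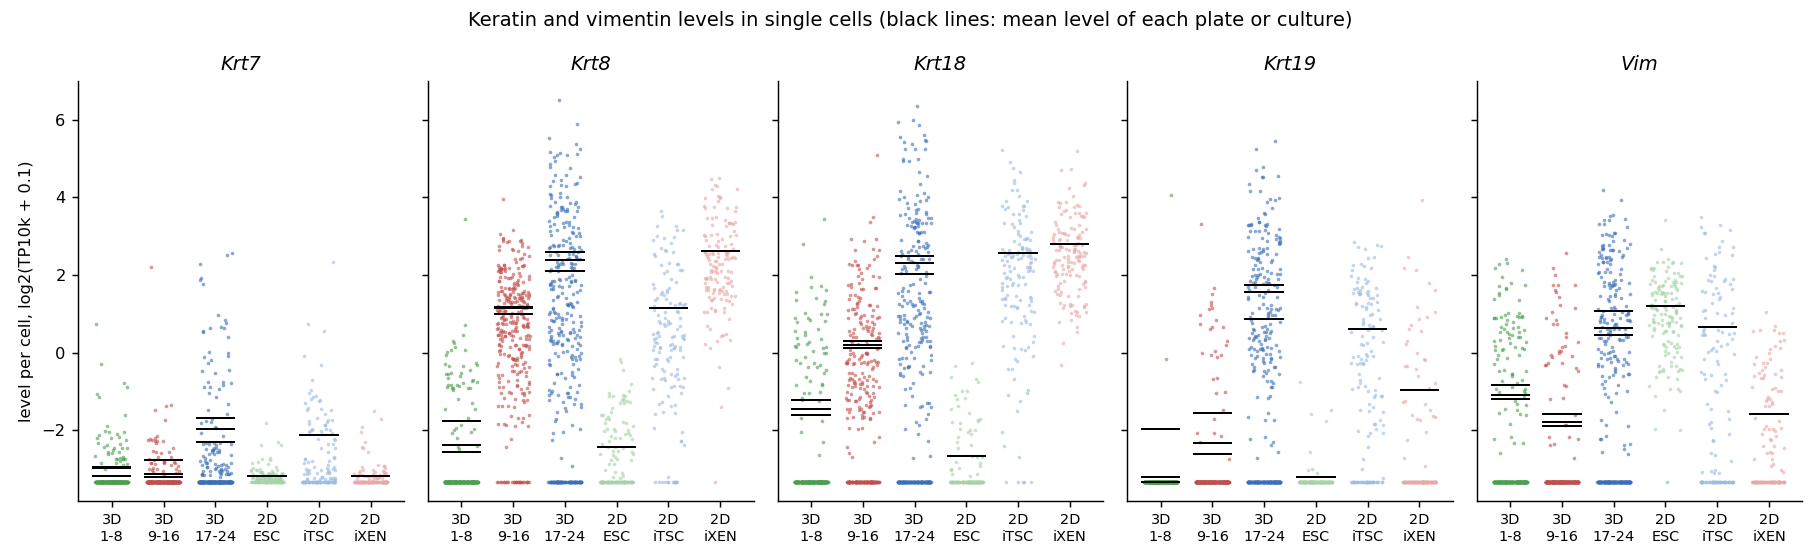
Level of each gene per cell as log2(TP10k + 0.1), with every kept cell as a point (spread sideways at random) and the mean of each plate or culture as a black line; the lowest points are cells at 0. The lines of Krt8 and Krt18 are stacked by compartment in 3D, Krt19 stands high in 3D columns 17-24 and 2D iTSC, and Vim is highest in 2D ESC.

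To compare compartments across all genes, a gene was called when its mean level differed at least 2-fold after adding 0.1 TP10k, and, where 3D cells entered, went the same way on all 3 plates. Background genes were those that at least 10% of cells expressed above 0 in one or the other group. Krt8 and Krt18 were higher in the VE columns than in the Epi columns, with log2 folds of 3.31 (2.78 to 3.73 over the plates) and 1.61 (1.51 to 1.79). These were 2 of the 5 members, and of 10662 background genes 8.48% were called higher and 7.54% lower. The other members were not called. Vim had a log2 fold of -0.71 (-0.94 to -0.50), Krt7 of 0.02, and Krt19, which was too rare for the background, of 0.61 with both signs among the plates.

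All 5 members were called higher in the ExE columns than in the Epi columns, where 6.53% of 10886 background genes were called higher and 3.78% lower. The log2 fold was 4.57 for Krt8 (3.88 to 5.14), 4.13 for Krt19 (2.82 to 5.07), 3.69 for Krt18 (3.48 to 3.90), 1.77 for Vim (1.55 to 1.91) and 1.07 for Krt7 (0.69 to 1.24). The keratins and the mesenchymal filament gene thus lay on the same side of this comparison. Krt7 fell below 2-fold without plate 3, with a log2 fold of 0.96.

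All 5 members were also called higher in the ExE columns than in the VE columns, where 5.97% of 10836 background genes were called higher and 4.13% lower. Krt19 led with a log2 fold of 3.51 (3.12 to 4.07), followed by Vim with 2.48 (2.04 to 2.85), Krt18 with 2.08 (1.92 to 2.19), Krt8 with 1.26 (1.1 to 1.40) and Krt7 with 1.05 (0.79 to 1.43). Krt7 was below 2-fold without plate 3 (0.84). For Krt8, the difference lay in the strongest cells and not in the typical one. Its median was 1.41 TP10k in the ExE columns and 1.59 in the VE columns, its 90th percentile was 13.5 and 4.46, and the difference of mean log2 values was -0.07. The 10% of cells with the highest level held 54.4% of all Krt8 in the ExE columns and 31.2% in the VE columns. Without the cells whose highest marker list was that of another lineage, all 5 members were still called.

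The ExE columns were divided further by their highest marker list, as a description of a range and not of types. In the cells with the ExE list highest, Krt18 averaged 5.54 TP10k, Krt8 5.16, Krt19 2.19 and Vim 1.11. In the 58 cells with the VE list highest, Krt8 averaged 6.81 TP10k, Krt19 5.32, Krt18 3.91 and Vim 3.05. In the VE columns Krt19 averaged 0.137 TP10k and Vim 0.2. In the 41 cells with the Epi list highest, Vim averaged 2.30 TP10k, Krt8 2.23, Krt19 1.38 and Krt18 1.18. Median numbers of genes above 0 were 5587, 5305 and 4831 in these 3 sets of cells.

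In 2D, induced cells were compared with ESCs outside the embryoid. Each 2D culture was a different ESC line in its own medium and on its own library plate, and the ESCs received no DOX. Lineage cannot be told apart from these in comparisons between the 2D cultures. In iTSC, 4 members were called higher than in ESCs, while 5.69% of 13788 background genes were called higher and 3.30% lower. The log2 fold was 5.22 for Krt18, 3.79 for Krt19, 3.57 for Krt8 and 1.06 for Krt7. The call of Krt7 was lost with no minimum of genes (0.71), from TPM (0.99), with mean log2 values (0.52) and with a pseudocount of 1 (0.16). Vim was not called, at -0.52, but was called lower with mean log2 values (-1.81) and with no minimum of genes (-1.01). In iXEN cells, 3 members were called higher than in ESCs and 1 lower, beside 8.21% and 5.96% of 13681 background genes. Krt18 had a log2 fold of 5.46, Krt8 of 5.03 and Krt19 of 2.23, whereas Vim had -2.77, and Krt7 was level at 0.01. The call of Krt19 was lost with mean log2 values (0.76) and with a pseudocount of 1 (0.49).

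The extraembryonic cultures shared Krt18 and parted in the other members, though the calls of Krt19 and Krt7 depended on the processing. Between iXEN cells and iTSC, Krt18 had a log2 fold of 0.24, Krt8 was called higher in iXEN cells with 1.45, and Krt19 (-1.56), Vim (-2.25) and Krt7 (-1.05) were called lower. Among 13450 background genes 5.18% were called higher and 5.30% lower. With only cells of 5000 to 8000 genes above 0, Krt19 was no longer called, at -0.63. Its call was also lost with no minimum of genes (-0.61) and with a pseudocount of 1 (-0.77). The call of Krt7 was lost with no minimum of genes (-0.66) and from TPM (-0.98). It was also lost with mean log2 values (-0.53) and with a pseudocount of 1 (-0.16).

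Each embryoid compartment was then set beside its 2D culture. In the Epi columns Vim was called lower than in ESCs, with a log2 fold of -2.23 (-2.39 to -2.03), and Krt18 was called higher, with 1.26 (1.07 to 1.45). Beside these 2 members, 1.92% of 13109 background genes were called lower and 2.49% higher. Krt18 stayed low in both groups, and on the scale of mean log2 values its difference was 0.28. Only 6 ESCs fell in the range of 5000 to 8000 genes that most 3D cells covered, so the share of cells with Vim could not be compared at like depth. In the Epi columns, that range had Vim in 39.9% of the cells.

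In the VE columns 3 members were called lower than in iXEN cells and none higher, while 1.48% of 12248 background genes were called lower and 0.906% higher. The log2 fold was -2.59 for Krt18 (-2.68 to -2.51), -1.49 for Krt8 (-1.60 to -1.43) and -1.12 for Krt19 (-1.66 to -0.60). Vim was not called, at -0.16. Among cells with 5000 to 8000 genes above 0 these folds were -3.03, -1.60 and -2.08. Without plate 5, Krt19 was not called, at -0.93.

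In the ExE columns 1 member, Krt8, was called higher than in iTSC, with a log2 fold of 1.22 (0.96 to 1.43), beside 3.65% of 13012 background genes called higher and 2.67% called lower. Krt19 was not called at 0.84 (0.26 to 1.15), but was called without plate 5 at 1.05, and it was 0.35 among cells with the ExE list highest. Krt18 had a log2 fold of -0.27 and Vim of 0.07. The means of Krt18 hide unlike distributions. The median cell held 0.809 TP10k in the ExE columns and 4.25 in iTSC, and the difference of mean log2 values was -2.04. For Krt8 the medians were 1.41 and 1.2 TP10k, and the difference of mean log2 values was 0.12.

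**Figure D2:**
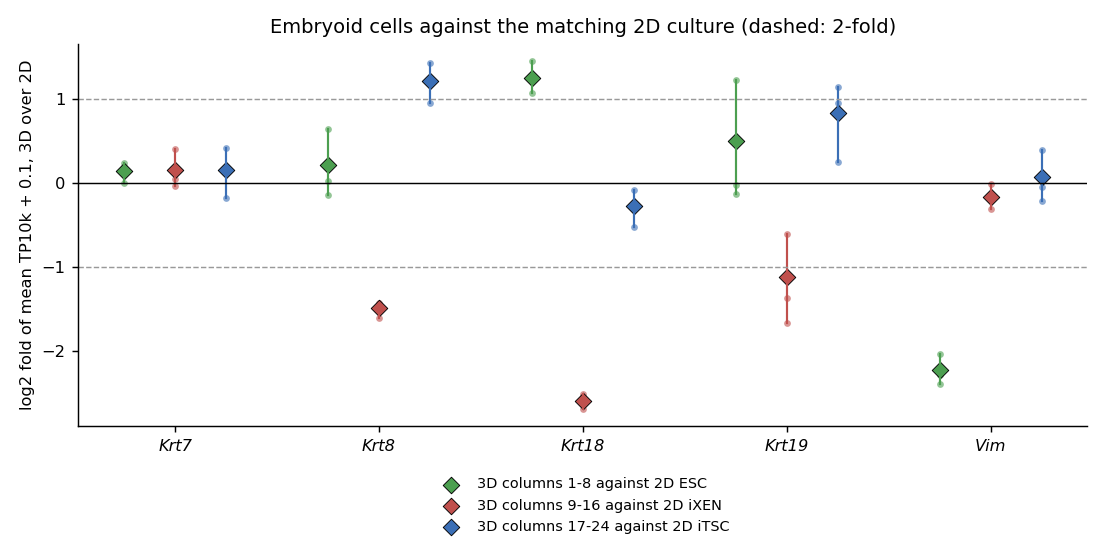
Log2 fold of mean TP10k + 0.1, 3D over 2D, for each gene in the matched lineages, with the pooled value as a diamond, the 3 plates as small points and their range as a line. Krt8 lies above the 2-fold line for ExE and below it for VE, Krt18 is lowest for VE, and Vim is lowest for Epi.

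The make-up of the filament genes was compared through the summed mean levels. The 5 genes together amounted to 0.861 TP10k in the Epi columns, 3.48 in the VE columns, 14.2 in the ExE columns, 2.35 in ESCs, 10.9 in iTSC and 13.5 in iXEN cells. Vim made up 93% of this sum in ESCs and 45.2% in the Epi columns. In the other groups the keratins dominated, with 94.3% in the VE columns (93.6 to 94.7 over the plates), 88.9% in the ExE columns (87.4 to 91.1), 86.4% in iTSC and 98.3% in iXEN cells.

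The balance between the partners differed among groups of the same lineage. The ratio of mean Krt8 to mean Krt18 was 1.97 in the VE columns (1.93 to 2.03 over the plates) and 0.876 in iXEN cells. It was 1.07 in the ExE columns (1.06 to 1.07) and 0.368 in iTSC. In the ExE columns the ratio was 0.996 with 5000 to 8000 genes and 0.931 without cells of another lineage by markers, so which partner was higher there depended on the cells kept. In the VE columns the ratio was 2.29 and 2.22 with these choices, above the range of the plates. In single cells with both genes above 0, the median log2 ratio of Krt8 to Krt18 was 0.93 in the VE columns, -0.20 in iXEN cells, 0.02 in the ExE columns and -1.48 in iTSC. Krt19 adds to the type I side. Type II keratins made up 41.6% of the 4 keratins in the ExE columns, 23.9% in iTSC, 63.8% in the VE columns and 45.3% in iXEN cells. Whether reads were divided among near-identical copies of these genes by the authors' quantification was not tested.

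**Figure D3:**
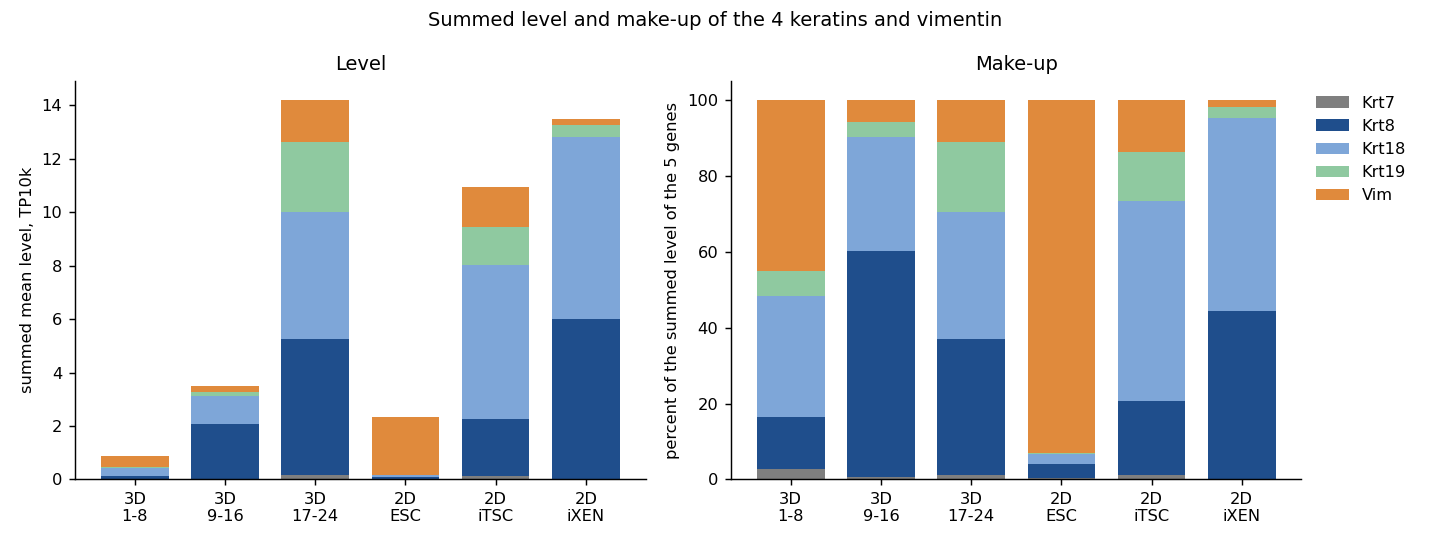
Summed mean level of the 5 genes in TP10k (left) and the percent each contributes to that sum (right) in the 6 groups, with 1 color per gene. Vim makes up 93% of the sum in 2D ESC and 1.75% in 2D iXEN, and Krt8 makes up 59.4% in 3D columns 9-16.

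Within cells, Krt8 and Krt18 were the closest pair of members in the VE columns, the ExE columns, iTSC and iXEN cells, but not in the Epi columns or ESCs. Correlations are given as Pearson r of ln(TP10k + 1) across cells, centred on the plate, and are descriptions, since cells of a group share their pool, plate and depth. The r was 0.72 over the cells of the ExE columns (0.59 to 0.82 on single plates), 0.73 over iXEN cells, 0.60 over iTSC and 0.36 over the cells of the VE columns (0.31 to 0.45). In ESCs it was 0.06, below that of Krt7 with Krt8 (0.15), and Krt18 ranked 3362nd of 10983 genes for Krt8. Among all genes above 0 in at least 25% of the cells, Krt18 ranked 1st for Krt8 in the ExE columns (of 8125 genes), in iXEN cells (of 10267), in iTSC (of 10536) and in the VE columns (of 7903). In the opposite direction Krt8 ranked 1st for Krt18 in the ExE columns, iXEN cells and iTSC and 2nd in the VE columns, behind Cdkn1a (0.36), the cell cycle inhibitor p21. The partial correlation given the number of genes above 0 differed from r by at most 0.0114 in the 6 groups.

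**Figure D4:**
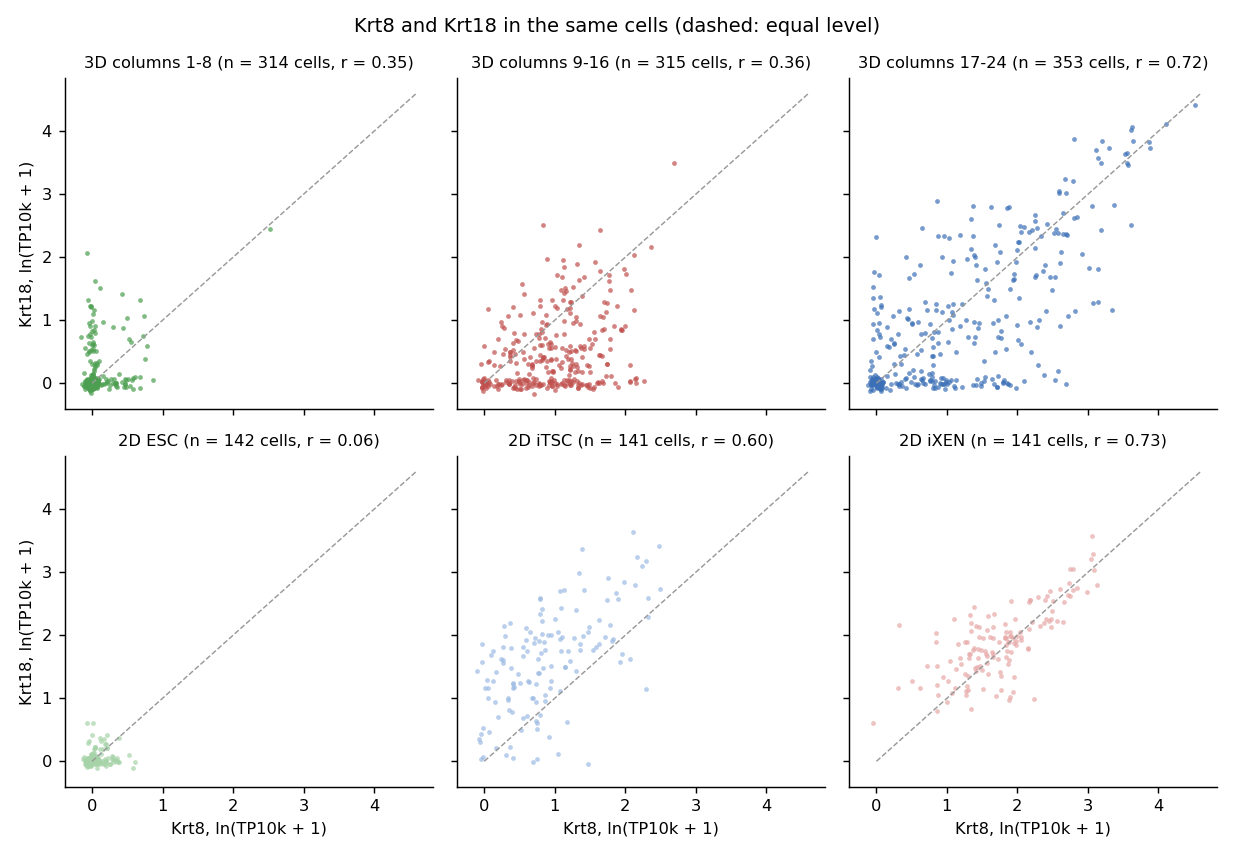
Krt8 against Krt18 as ln(TP10k + 1) in each kept cell of the 6 groups, with a small random shift so that cells at 0 can be seen and a dashed line of equal level. Points follow the line in 3D columns 17-24 (r = 0.72) and 2D iXEN (r = 0.73), lie mostly above it in 2D iTSC, and crowd at 0 in 3D columns 1-8 and 2D ESC.

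Detection in the same cell told the same pair apart by format. In the VE columns 58.4% of the cells held both Krt8 and Krt18, 33% held Krt8 without Krt18 and 1.59% the reverse. In the ExE columns 53.8% held both, 20.4% Krt8 alone, 6.23% Krt18 alone and 19.5% neither. Both were held by 99.3% of the iXEN cells and 87.9% of the iTSC. Krt18 was thus seen in 63.9% of the Krt8-positive and 18.5% of the Krt8-negative cells of the VE columns, and in 72.5% and 24.2% of those of the ExE columns. Among cells with 5000 to 8000 genes above 0, Krt18 was seen in 62.9% of the VE columns and 65.9% of the ExE columns. In that range 97.8% of the iTSC and 100% of the iXEN cells held it. The cause of the difference was not tested.

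In the Epi columns the keratin correlations rested on 1 cell. This cell, on plate 5 and singled out after its values were seen, held 16.5 TP10k of Krt19, 10.7 of Krt8, 10.7 of Krt18 and 1.56 of Krt7, and the Epi list was its highest list, with Pou5f1 at 3.43 and Cdx2 at 0. With it, r was 0.66 for Krt7 and Krt19, 0.61 for Krt8 and Krt19 and 0.35 for Krt8 and Krt18. Without it, these were -0.03, -0.02 and 0.17, and the mean of Krt19 in the Epi columns went from 0.0552 to 0.00255 TP10k. The calls of Krt8, Krt18 and Krt7 against the Epi columns were the same without this cell, and Krt19 was then called higher in the VE columns, at 1.21.

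Krt19 and Krt7 were correlated with the pair to different degrees in the extraembryonic groups. In the ExE columns r was 0.56 for Krt8 and Krt19, 0.54 for Krt7 and Krt18, 0.42 for Krt18 and Krt19 and 0.42 for Krt7 and Krt8, and Krt18 ranked 1st for Krt7. In iTSC these were 0.23, 0.20, 0.32 and 0.30. In iXEN cells r of Krt19 was 0.50 with Krt18 and 0.42 with Krt8, above the values in iTSC. Krt19 was above 0 in 37 iXEN cells, all of them with Krt8 and Krt18. That overlap is uninformative, because 99.3% of the iXEN cells held Krt8 and 100% held Krt18. In the VE columns r was 0.32 for Krt7 and Krt18, but it ranged from 0.03 to 0.47 on single plates. The rank correlation (Spearman rho) was 0.07. The highest levels there were 4.47 TP10k of Krt7 and 33.7 of Krt18. Among cells with the VE list highest they were 0.286 and 10.2. The most frequent pattern in the ExE columns was Krt8, Krt18 and Krt19 above 0 with Vim at 0 (76 cells, 21.5%), followed by all of them above 0 (59 cells, 16.7%). In iTSC 45.4% of the cells had all 4 of these genes above 0.

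The correlation of Vim with the keratins was weak in the 6 groups and had both signs. Its r with the 4 keratins lay between -0.22 and 0.17 over all groups, and was lowest for Krt18 in the ExE columns, at -0.22 (-0.29 to -0.12 on single plates). There, Vim was above 0 in 41% of the cells with Krt18 (34.3 to 48) and in 66.7% of those without (58.2 to 74.4). In the Epi columns the split by Krt8 went the other way, with Vim above 0 in 47.1% of the cells with Krt8 (32.9 to 61.5) and in 24.3% of those without (19.3 to 30), and r was 0.17 (0.11 to 0.22 on single plates). With Krt19, Vim had an r of 0.16 (0.05 to 0.23) in the ExE columns. Keratin and Vim were found in the same cell in every group. Any of the 4 keratins and Vim were above 0 in 83.1% of the ESCs, 63.1% of the iTSC and 46.1% of the iXEN cells. In 3D these were 45% of the cells of the ExE columns, 12.7% of the VE columns and 13.7% of the Epi columns. The share in ESCs includes trace levels, since Krt7 was above 0 in 59.9% of them but reached 10 TPM in 0.704%. In iTSC and iXEN cells no cell lacked all 4 keratins, which allows a share of up to 2.13% in each. Their shares with keratin and Vim are therefore those of Vim alone and are uninformative about co-expression.

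**Figure D5:**
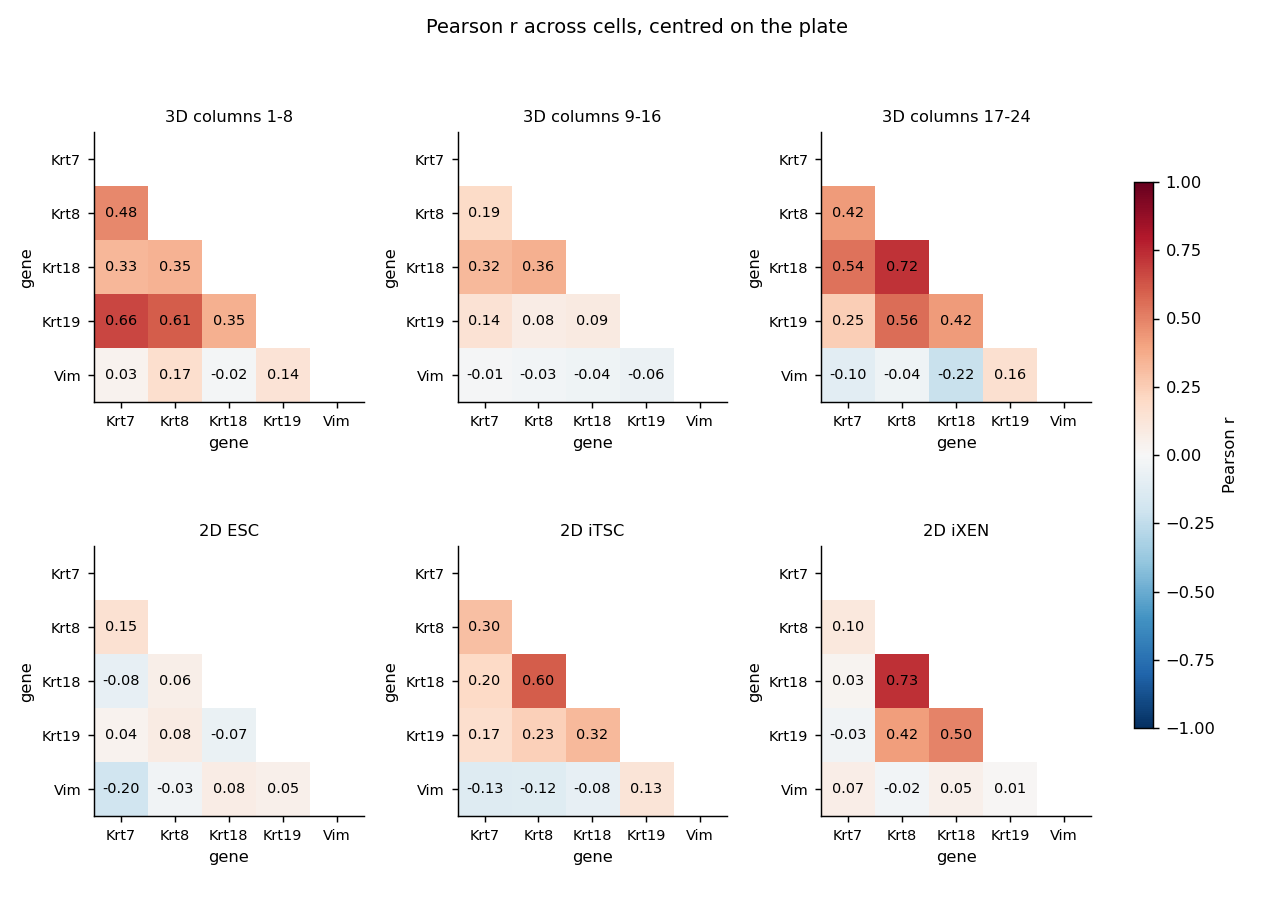
Pearson r of ln(TP10k + 1) across the cells of each group for the 10 pairs of genes, after centring on the plate, from blue (-1) to red (1). The keratin pairs are red in 3D columns 17-24, the values of Vim lie between -0.22 and 0.17, and the high values of 3D columns 1-8 rest on 1 cell.

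The members were then set beside lists of lineage genes in the same cells. In the ExE columns Krt18 had an r of 0.50 with the mean of 7 genes listed for differentiating trophoblast (0.41 to 0.59 on single plates). Krt7 had 0.36 with it, Krt8 0.21 and Krt19 0.15. Vim had -0.28 with this list, -0.33 with a list of 6 TSC genes and -0.35 with the ExE markers. Of single genes on these lists, named here after their values were seen, Plet1 had 0.45 and Hand1, a regulator of giant cell formation, 0.42 with Krt18, and Elf5 had -0.31 with Vim. Genes of the TSC list had both signs with Krt18. Cdx2 had -0.27 and Esrrb -0.14, but Elf5 had 0.31, Fgfr2 0.27, Eomes 0.14 and Bmp4 0.14. With Krt8, Cdx2 had -0.26. Cited1, of the list for differentiating trophoblast, had 0.21 with Krt18. Hand1 and Elf5 are also ExE markers. The paper found Hand1, Plet1, Elf5 and Eomes mainly in the ExE-like subcluster that it proposes to be the stem cell niche. The r with the list for differentiating trophoblast is therefore no measure of differentiation here.

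In iTSC the Epi markers had an r of -0.40 with Krt18, -0.35 with Krt8 and -0.35 with Krt19, but -0.03 with Vim. The 31 iTSC with the Epi list highest averaged 3.40 TP10k of Krt18 and 0.401 of Krt19, against 6.44 and 1.70 in those with the ExE list highest. In iXEN cells and the VE columns, the Epi markers had -0.38 and -0.33 with Krt18, compared with -0.08 and -0.17 with Krt8. A list of 4 cycling genes had -0.35 with Krt8 in iTSC and lay between -0.14 and 0.01 with it in the other groups.

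Over all 1406 kept cells, the genes most like each member were ranked among those above 0 in at least 25% of the cells. Krt18 was first for Krt8 (r = 0.72), followed by Reep5 (0.52), the tropomyosin Tpm4 (0.51), the annexin Anxa2 (0.50) and the tight junction gene Cldn6 (0.49). For Krt18 the next were Tinagl1 (0.60), Cldn7 (0.56), Tagln2 (0.53) and Cldn6 (0.52). Krt19 was most like Errfi1 (0.49) and the growth factor gene Igf2 (0.48), and Krt7 like Krt18 (0.39) and the trophoblast homeobox gene Rhox6 (0.38). Vim had no close partner, with Pcolce first at 0.32. After centring on group and plate, which takes out the differences between groups, the first gene was Krt18 for Krt8 (0.63), Krt8 for Krt18 and for Krt19 (0.45), Krt18 for Krt7 (0.43) and Mdk for Vim (0.25).

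Of 50 other keratin genes in the table, Krt42 stood out. This type I keratin, on chromosome 11 like Krt19, averaged 0.604 TP10k in the Epi columns and 0.657 in ESCs, above each of the 4 keratins described so far in those groups, and 0.128 in iTSC. In the VE columns, the ExE columns and iXEN cells it was at 0.00882, 0.0136 and 0.00402 TP10k. The 4 members held 95.2% to 99.3% of the summed keratin level in the VE columns, ExE columns, iTSC and iXEN cells, 35.5% in the Epi columns and 17% in ESCs. Krt42 was above 0 in 81% of the ESCs and 32.2% of the cells of the Epi columns.

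Some keratin linker and desmosome genes were called higher in comparisons in which keratins were. Of 11 linker and desmosome genes in the background of the ExE against the Epi columns, 3 were called higher and 0 lower, namely the surface protein gene Perp (log2 fold 2.02), the desmocollin Dsc2 (1.72) and desmoplakin, Dsp (1.53). In the VE columns against the Epi columns 2 of 9 were called higher, the desmoglein Dsg2 (1.64) and Dsp (1.03), and in iTSC against ESCs 4 of 12, including Perp (3.75) and plectin, Plec (2.54). Against iTSC, the ExE columns had 3 of 13 called lower, Perp (-2.02), Plec (-1.92) and plakoglobin, Jup (-1.16). The median log2 fold of the list was 0.57 in the ExE against the Epi columns, where that of all background genes was 0.07, and -0.06 in the VE against the Epi columns, beside -0.04. The background shares are those given with each comparison.

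Other intermediate filament genes were led by Lmna, which encodes the nuclear lamins A and C. It was called higher in the VE columns (log2 fold 3.46) and ExE columns (3.63) than in the Epi columns, and in iXEN cells (2.55) and iTSC (1.42) than in ESCs. The neuronal filament gene Ina was called lower in the VE columns (-1.95) and ExE columns (-2.01). In all, 2 of 8 genes of this list were called higher and 1 lower in the VE columns, with a median of 0.04, and 2 of 7 and 1 in the ExE columns, with a median of 0.10. Of all background genes, 8.48% were called higher and 7.54% lower in the VE columns, with a median of -0.04. For the ExE columns these were 6.53%, 3.78% and 0.07.

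Genes on the epithelial and mesenchymal lists did not split by name. Of all background genes, 6.53% were called higher and 3.78% lower in the ExE against the Epi columns, with a median of 0.07. In the VE against the Epi columns these were 8.48%, 7.54% and -0.04. Fn1, the fibronectin gene and a mesenchymal marker, was called lower in the VE columns (log2 fold -3.02) and ExE columns (-1.61) than in the Epi columns. Anxa2 (3.02), S100a6 (2.89) and Lgals1 (2.84) of the same list were called higher in the ExE columns, so that 3 of 6 were called higher and 1 lower, with a median of 1.73. The E-cadherin gene Cdh1 was called higher in the ExE columns than in the Epi columns (1.97), the VE columns (1.17) and iTSC (1.25), and 3 of 9 epithelial genes were called higher and 0 lower against the Epi columns, with a median of 0.90. Epcam was called lower in the VE columns than in the Epi columns (-1.21). Of 10 epithelial genes in that comparison, 3 were called higher and 2 lower, with a median of 0.44. Mean Elf3 was 1.55 TP10k in the VE columns and 0.25 in the Epi columns, and mean Klf5 was 2.01 and 0.648. Snai1, a repressor of epithelial genes, was called higher in the VE columns than in the Epi columns (1.71), and in iXEN cells (2.14) and iTSC (1.09) than in ESCs.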

How the data were processed

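Single-cell SMART-seq2 libraries of RtL-embryoids and 2D cultures were analysed from the deposited TPM values. Per the study's methods, the authors made these TPM by demultiplexing with bcl2fastq, pseudoaligning to GRCm38 with Gencode vM16 transcripts by kallisto, summing to genes, and removing mitochondrial, ribosomal and pseudogenes. TPM hold no read counts, so depth is unknown, and the read minimum of the study could not be applied. Wells without values (39) and with fewer than 2500 genes above 0 were left out. TPM were rescaled to 10000 per cell (TP10k). Folds used a pseudocount of 0.1 on group means. Shares have exact Clopper-Pearson intervals. Each group was 1 sample, so no test was run. Wells were sorted as single cells and no doublet caller was used. The members and lists were chosen with earlier results of these data known. Genes named from a list were its up to 3 largest changes in each direction, and those like a member its 5 highest r. The fold and correlation steps were tested on simulated data. Alternatives varied the pseudocount, scale, cell filter and plates.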

Additional observations from a re-analysis of the deposited data

Results flagged for a closer look

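The differences between 3D and 2D went in opposite directions between lineages on every plate for 3 keratins, and the difference between lineages itself was not tested. For Krt8 the log2 fold of 3D over 2D was -1.49 in VE and 1.22 in ExE. For Krt18 it was 1.26 in Epi, -2.59 in VE and -0.27 in ExE, so that Epi stood opposite to both other lineages. For Krt19 it was -1.12 in VE and 0.84 in ExE. The ExE folds of Krt18 and Krt19 were not called. With mean log2 values Krt18 in Epi (0.28), Krt8 in ExE (0.12) and Krt19 in VE (-0.50) lost their calls. Krt18 in ExE was then called lower, at -2.04. The plates of a lineage were all set against the same 2D culture, so their agreement is not independent.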

How the results depend on the processing

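No paired analysis was possible because each group is 1 sample and the well numbers pair nothing. Of the 30 folds called, 17 lost no call under any alternative. With a pseudocount of 1 TP10k, the number of members called was 1 for the VE against the Epi columns, 3 for the ExE against the Epi columns, 3 for ExE against VE, 1 for the Epi columns against ESCs, 0 for the ExE columns against iTSC and 2 for iXEN cells against iTSC. It was 2 in place of 3 for the VE columns against iXEN cells, and 3 in place of 4 for both iTSC and iXEN cells against ESCs. With mean log2 values it was 2 for ExE against VE, where Krt8 changed sign (-0.0699), 1 for the Epi columns against ESCs, 4 for the ExE against the Epi columns, 2 for the VE columns against iXEN cells, and 3 for iXEN cells against ESCs and against iTSC. For iTSC against ESCs it stayed at 4, with Krt7 lost and Vim gained. With no minimum of genes it was 2 for the ExE columns against iTSC and 2 for iXEN cells against iTSC, and Krt7 changed sign between ExE and VE (-0.38). With 5000 to 8000 genes it was 2 for the ExE columns against iTSC, and leaving out 1 plate gave 1 to 2 there. The r of Krt8 and Krt18 was 0.60 in the ExE columns and 0.46 in iTSC from TPM, and 0.50 in iTSC and 0.87 in iXEN cells with 5000 to 8000 genes. The alternative without the cell of highest Krt19 was chosen after seeing the data. The causes were not tested. Read depth is unknown, so a value of 0 may be a gene that was missed.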
